A study of Drosophila melanogaster with 6 samples.

Results

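The CPR family comprises the cuticle proteins of Drosophila that carry the Rebers and Riddiford consensus, a stretch through which these proteins bind chitin. Cuticle is a mesh of chitin fibres filled with such proteins, and epidermal cells secrete most of it around each moult, with different sets of CPR genes used in larvae, pupae and adults. In the adult head the cuticle forms the capsule, the antennae, the mouthparts and the bristles. The eye adds a specialised piece, the transparent corneal lens of each facet, in which Cpr72Ec, Cpr66D, Crystallin (Crys) and retinin are known components. Members were taken by name, as the genes of the count table whose FlyBase symbol begins with Cpr and a digit. This gave 70 CPR genes of 17807 genes. The gene Cpr, without a digit, encodes cytochrome P450 reductase and was not a member.

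Poly-A RNA was sequenced from heads of male flies in 6 libraries, 3 of pum kd flies and 3 of control flies, each from 10 pooled heads. The pum kd flies carried UAS-pumRNAi (TRiP.HMS01564 in VALIUM20, inserted at attP2), an RNAi transgene against the RNA-binding repressor pumilio (pum). The control flies carried UAS-mCherryRNAi (VALIUM20-mCherry.RNAi at attP2), whose target protein flies do not have. All 6 libraries shared the driver chromosomes, esg-Gal4 with UAS-2xYFP on one and Su(H)GBE-Gal80 with tub-Gal80ts on the other, and the w1118 / y1, sc*, v1; sev21 background. The esg-Gal4 driver is active in intestinal stem cells and in the corpus allatum, Su(H)GBE-Gal80 blocks it in enteroblasts, and the heat-sensitive tub-Gal80ts held it off at 18 °C until the shift to 29 °C. Flies were used at an age of 6 to 8 days and were taken after a sleep assay. The comparison asked whether RNA levels in the head differ after pum knockdown in those cells, here for the transcripts of cuticle proteins.

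Total gene counts lay between 33258537 and 39377789 in pum kd libraries and between 33445243 and 34300972 in control libraries. The level of a gene is its CPM, the reads on the gene divided by the TMM-scaled library size, so that 1 CPM stood for 33.1 to 37.5 reads. The targeted gene pum, measured here in whole heads, had 176, 192 and 228 CPM in pum kd heads, against 346, 168 and 270 CPM in control heads, and the groups overlapped (log2 fold change -0.40, SE 0.25). Photoreceptor transcripts summed to at least 90522 CPM in every library. Transcripts of 5 antennal genes (Obp83a, Obp83b, Obp28a, lush and Orco) summed to 162.5, 47.6 and 4.34 CPM in pum kd libraries, against 4.20, 3.25 and 5.27 CPM in control libraries, so pum kd replicates 1 and 2 stood apart and pum kd replicate 3 did not. In whole heads, fewer cells of a type and less RNA per cell cannot be told apart.

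Only part of the family was detected in the adult head. Of the 70 CPR genes, 24 had no read in any library, 26 had traces below a mean of 1 CPM, and 20 had a mean of at least 1 CPM over the 6 libraries and are called expressed here. All 20 expressed genes had reads in all 6 libraries, whereas none of the 26 trace genes did. At the limit, the lowest expressed gene was Cpr62Ba with a mean of 1.91 CPM, and the highest trace gene was Cpr64Ac with 0.965 CPM. A count of 0 allowed up to 3 reads, or 0.0801 to 0.0906 CPM in a library (counting error only), so the 24 genes without reads were not detected at this depth. This limit does not hold for genes whose reads cannot be assigned to a single gene, which are named below. Reads on the 70 genes together made up 0.0913% to 0.126% of the gene counts of a library.

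**Figure D1:**
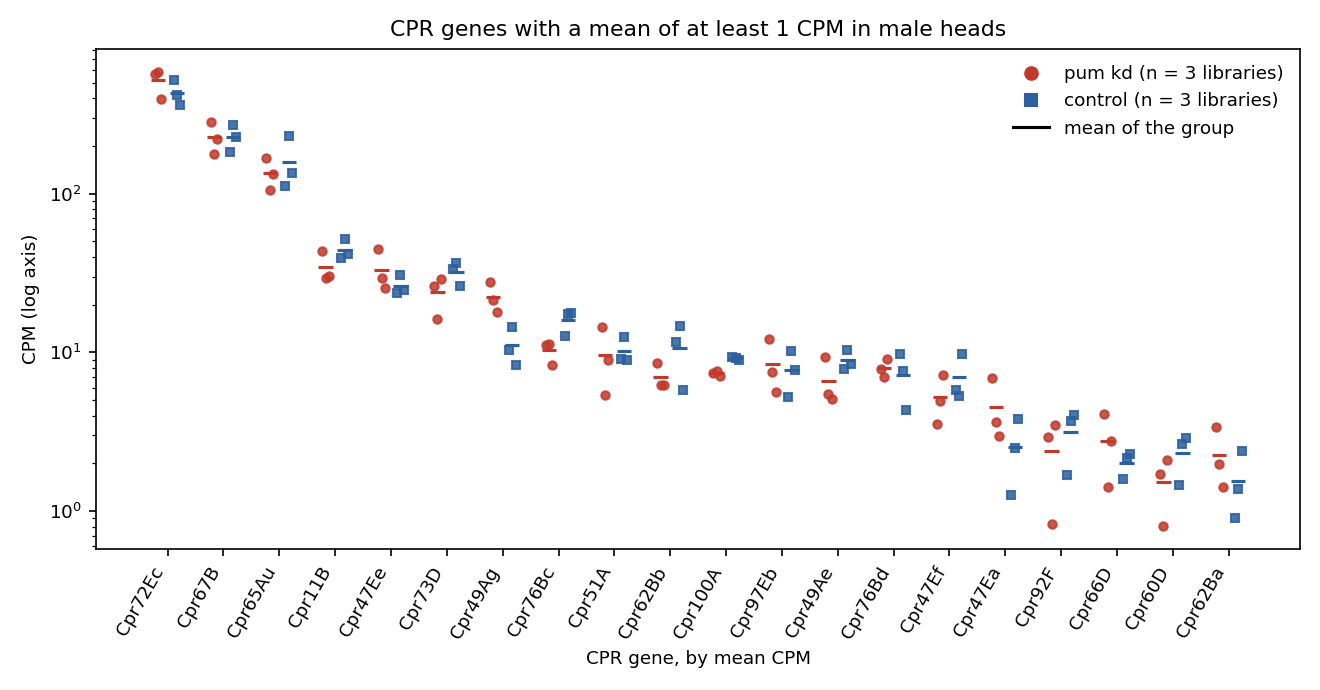
CPM (log axis) of the 20 expressed CPR genes in each pum kd library (red circles) and each control library (blue squares), with the group mean as a bar, ordered by mean CPM. Cpr72Ec, Cpr67B and Cpr65Au lie above 100 CPM in all 6 libraries, and the points of both groups intermingle for most genes.

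Most CPR reads came from 3 genes. Cpr72Ec, a structural protein of the corneal lens, had 566, 586 and 396 CPM in pum kd heads, against 519, 416 and 360 CPM in control heads. The groups overlapped, with pum kd replicates 1 and 2 above the control libraries and pum kd replicate 3 among them. The averages were 516 ± 105 CPM in pum kd and 432 ± 80.4 CPM in control (SD, n = 3 each). The log2 fold change was 0.26 (SE 0.21, edgeR adjusted p = 0.993), and it was -0.12 when pum kd replicates 1 and 2 were left out together. Cpr72Ec lies at 3L:16365894-16367340 on the minus strand (dm6), as a single exon of 1447 bases with 429 coding codons.

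Cpr67B, a single gene at 3L:9404797-9406174, had 283, 177 and 220 CPM in pum kd heads, against 183, 271 and 227 CPM in control heads. Both groups averaged 227 CPM, with an SD of 53.1 CPM in pum kd and 43.7 CPM in control (n = 3 each). The 95% interval of its log2 fold change ran from -0.49 to 0.49, and the sign of the estimate turned with the setting. Cpr65Au, at 3L:6131242-6132109, had 166, 105 and 133 CPM in pum kd heads, against 112, 231 and 135 CPM in control heads, where replicate 2 was the highest of the 6 libraries. Its log2 fold change of -0.24 (SE 0.28) turned to 0.16 without control replicate 2. An antisense transcript, asRNA:CR46005, covers 491 of the 526 exon bases of Cpr65Au, but had at most 46 reads in a library, beside 3692 to 8091 reads for Cpr65Au. The strand setting of the counting is not given in the sources used here, although the libraries were stranded.

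Together Cpr72Ec, Cpr67B and Cpr65Au held 80.5% to 83.8% of the summed CPR CPM in pum kd libraries and 78.5% to 81.2% in control libraries. Cpr72Ec alone held 42.6% to 56.6% of the sum in pum kd and 35.9% to 51.8% in control. The whole family summed to 1261, 1036 and 930 CPM in pum kd heads, against 1002, 1160 and 919 CPM in control heads. These sums averaged 1076 ± 169 CPM in pum kd and 1027 ± 122 CPM in control (SD, n = 3 each), a difference smaller than the spread within either group.

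Levels of different genes were compared per kilobase of exon. On this scale Cpr72Ec averaged 328 CPM per kb over the 6 libraries (range 249 to 405), Cpr65Au 279 (199 to 439) and Cpr67B 225 (176 to 280). Their ranges overlapped and their order differed between libraries, with Cpr65Au highest in control replicate 2. The next gene, Cpr11B, averaged 48.1 CPM per kb (36.1 to 63.3), clear of the first 3 in every library. Cpr49Ag followed at 25.6 CPM per kb, Cpr47Ee at 21.4 and Cpr51A at 15.2, with ranges that overlapped between neighbours. The remaining expressed genes averaged between 9.22 (Cpr73D) and 1.49 CPM per kb (Cpr92F).

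The family is clustered in the genome, and the expressed genes were scattered over the clusters. Of the 70 CPR genes, 49 lay in 12 runs in which neighbouring members were within 20 kb of each other, and 21 stood alone. Of the 20 expressed genes, 12 lay in runs and 8 stood alone, and 7 of the 12 runs held at least 1 expressed gene. By chromosome arm, 9 of 35 members on 3L, 7 of 21 on 2R, 3 of 5 on 3R, 1 of 4 on X and 0 of 5 on 2L were expressed. All 5 members on 2L (Cpr23B, Cpr30B, Cpr30F, Cpr31A and Cpr35B) had no read in any library.

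Within the runs, direct neighbours differed widely in level. In the Cpr72E run, 3 single-exon genes within 4.74 kb, Cpr72Ec had 12251 to 21960 reads in a library while Cpr72Ea had reads in 1 library and Cpr72Eb in 3. In the Cpr65A run, 7 members within 30.4 kb interleaved with Lcp65A genes, Cpr65Au was expressed, Cpr65Az had 3 reads in 1 library, and the other members had none. In the Cpr47E run (7 members, 26.7 kb) Cpr47Ea, Cpr47Ee and Cpr47Ef were expressed and Cpr47Eb, Cpr47Ec and Cpr47Ed had no reads. In the Cpr49A run (8 members, 38.5 kb) Cpr49Ae and Cpr49Ag were expressed, 5 members had traces and Cpr49Ad had no reads. Cpr49Af, which lies between both expressed genes of that run, had at most 54 reads in a library.

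**Figure D2:**
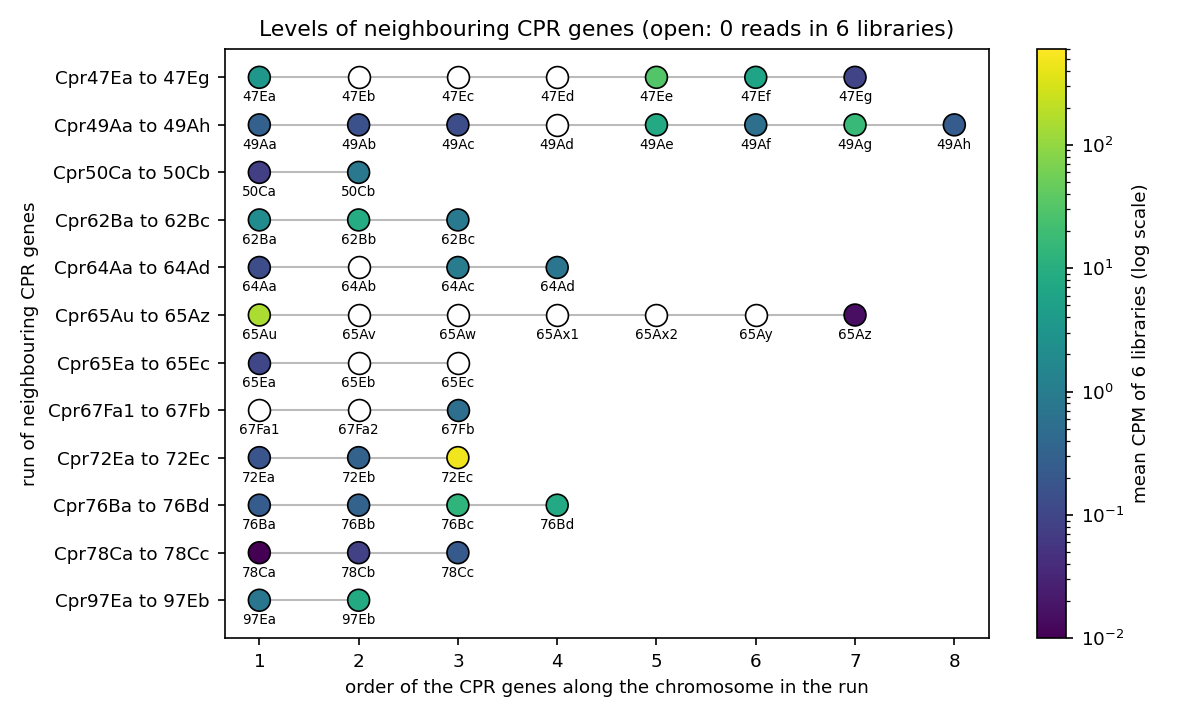
Mean CPM over the 6 libraries (colour, log scale) of the CPR genes in the 12 runs of neighbouring members, each run on a line with its genes in chromosomal order. Open circles had 0 reads in all 6 libraries, and the brightest circles, Cpr72Ec and Cpr65Au, stand beside genes with traces or no reads.

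The expressed genes had a median of 238 coding codons (range 93 to 1231), against 189 (117 to 815) for the trace genes and 145.5 (102 to 340) for the genes without reads. The ranges overlapped, the shortest gene of the family, Cpr60D, was expressed, and Cpr65Au had only 106 codons. The difference was not tested. Longer transcripts give more reads at the same number of molecules. Duplicated genes can also lose reads. Cpr65Ax1 and Cpr65Ax2 have 102 codons each, Cpr67Fa1 and Cpr67Fa2 have 134 each, and reads that map to several places were not counted to genes, so the counts of 0 for these 4 genes may miss transcripts. Cpr57A lies wholly within the exons of Obp57d on the same strand, and both had no reads. Reads shared by both genes may not be counted to either, so the count of 0 for Cpr57A may also miss transcripts.

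No CPR gene was called between pum kd and control heads. Of the 70 genes, 29 passed the filter on low counts and were tested (the 20 expressed genes and 9 trace genes), and 41 were not. With edgeR's quasi-likelihood test, 0 of 29 had an adjusted p under 0.05, where a call also asks for a log2 fold change of 1 or more in either direction, and 0.103% of all 10696 genes tested were called. An unadjusted p under 0.05 was reached by 3 of the 29 (Cpr49Ag, Cpr49Aa and Cpr76Bc), against 4.95% of all genes tested. DESeq2 on the same counts also called 0 CPR genes, against 0.461% of all genes it tested.

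The direction was mixed. The log2 fold change was above 0 for 14 and below 0 for 15 of the 29 genes, against 45.6% above 0 among all genes tested. The median was -0.00015 for the CPR genes and -0.03 for all genes tested, and the CPR median turned from sign to sign as single libraries were left out, being -0.24 without control replicate 1 and 0.21 without control replicate 2. Among the 20 expressed genes, 8 were above 0 and 12 below, with a median of -0.17 and a range from -0.63 (Cpr76Bc) to 1.01 (Cpr49Ag). An absolute log2 fold change under 0.5 was seen for 14 of the 20, against 88.5% of all genes averaging 1 CPM or more. These sets were not matched by level. Between 1 and 10 CPM lay 12 CPR genes and 2353 of all genes tested, and between 10 and 1000 CPM lay 8 and 7030. The 2 shares therefore do not compare CPR genes with others of the same level.

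**Figure D3:**
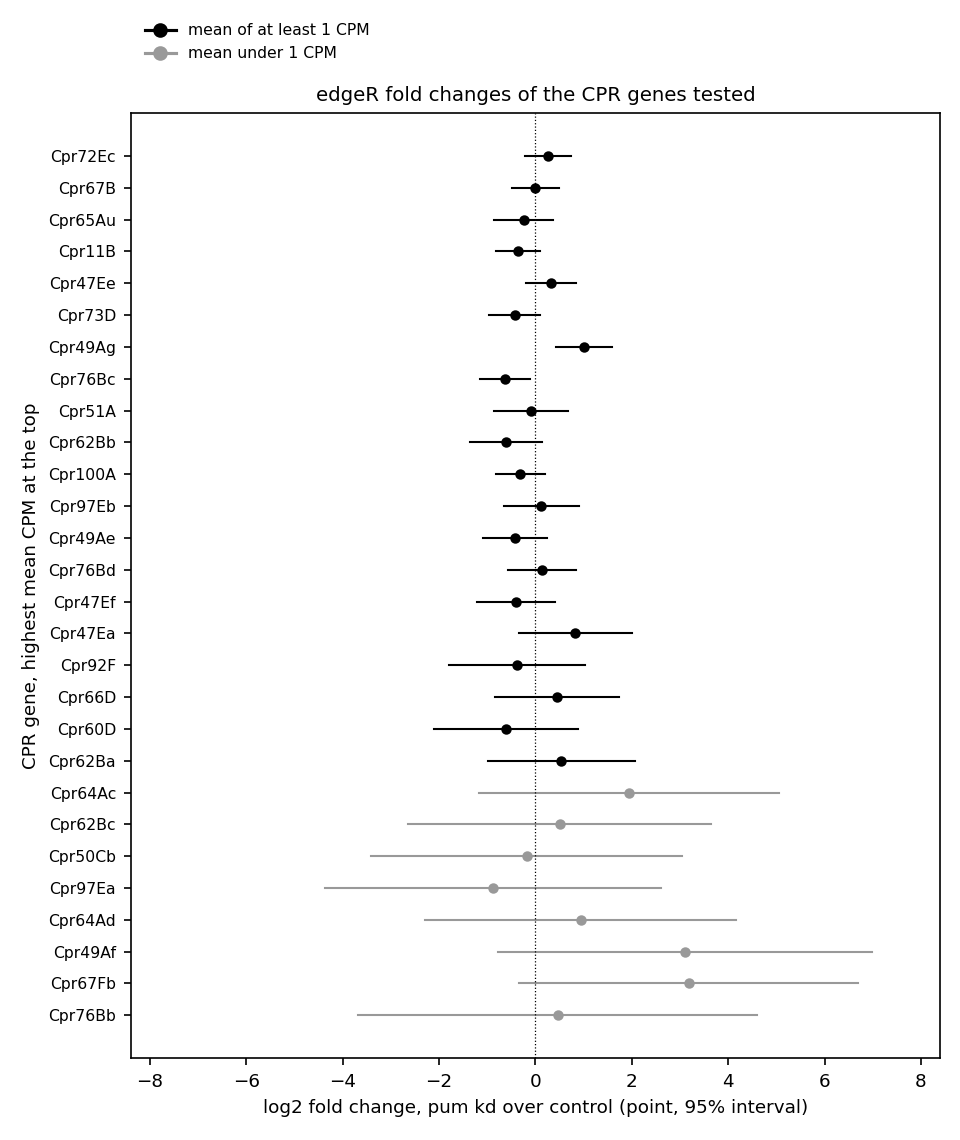
edgeR log2 fold changes, pum kd over control, with 95% intervals for the CPR genes tested, black for genes averaging 1 CPM or more and grey below it. Only the intervals of Cpr49Ag (0.44 to 1.58) and Cpr76Bc (-1.14 to -0.11) leave out 0, before any adjustment, and Cpr49Aa, with 0 reads in every pum kd library, is not drawn. The points of Cpr67Fb, Cpr49Af and Cpr64Ac, which passed the filter only with their pum kd reads, are not read as folds.

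The expressed gene with the smallest p was Cpr49Ag, a short gene of 134 coding codons at 2R:12407793-12408523 on the plus strand. It had 27.6, 21.3 and 17.9 CPM in pum kd heads, against 10.4, 14.4 and 8.35 CPM in control heads. The lowest pum kd library exceeded the highest control library. The averages were 22.3 ± 4.94 CPM in pum kd and 11.1 ± 3.10 CPM in control (SD, n = 3 each). The log2 fold change was 1.01 (SE 0.26, unadjusted p = 0.00275), but edgeR's adjusted p over all genes was 0.423.

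The antennal transcripts moved in part with Cpr49Ag. Pum kd replicates 1 and 2, with the high antennal sums of 162.5 and 47.6 CPM, also had the 2 highest Cpr49Ag values. Pum kd replicate 3, whose antennal sum of 4.34 CPM was within the control range, still had 17.9 CPM of Cpr49Ag, above the highest control value of 14.4 CPM. Without pum kd replicates 1 and 2 together the log2 fold change was 0.69, and the part of antennal tissue in the difference was not tested. Cpr49Ag passed the call only after ComBat-seq by the division of libraries used by the authors followed by DESeq2 (log2 fold change 1.23, adjusted p = 9.57e-05), a setting that called 2.13% of all genes, while the other alternatives gave adjusted p values from 0.0569 to 1. That division put control replicates 1 and 2 with pum kd replicate 1.

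The neighbours of Cpr49Ag in the run varied. Cpr49Ae, 2 members upstream, had 9.39, 5.47 and 5.06 CPM in pum kd heads, against 7.88, 10.4 and 8.44 CPM in control heads, so the groups overlapped with the pum kd average lower. Cpr49Af, between the genes, had 31, 54 and 18 reads in pum kd libraries, against 0, 0 and 11 reads in control libraries. The groups did not overlap, but Cpr49Af had an adjusted p of 0.993 in edgeR. No fold is given for it, since it passed the filter only with its pum kd reads. Control replicate 3 was the only control library with reads. Cpr49Aa, at the far end of the run, had 0 reads in all 3 pum kd libraries, against 19, 11 and 26 reads in control libraries. Its edgeR adjusted p was 0.677, and no fold is given, since it passed the filter only through its control reads and 12.9% to 15.3% of all genes with 15 to 60 predicted reads also had 0 reads in a pum kd library. Cpr49Aa passed the call with limma on the normalized values of the authors (adjusted p = 0.000151, where 1.1% of all genes were called) and with ComBat-seq followed by DESeq2 (adjusted p = 0.0224).

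**Figure D4:**
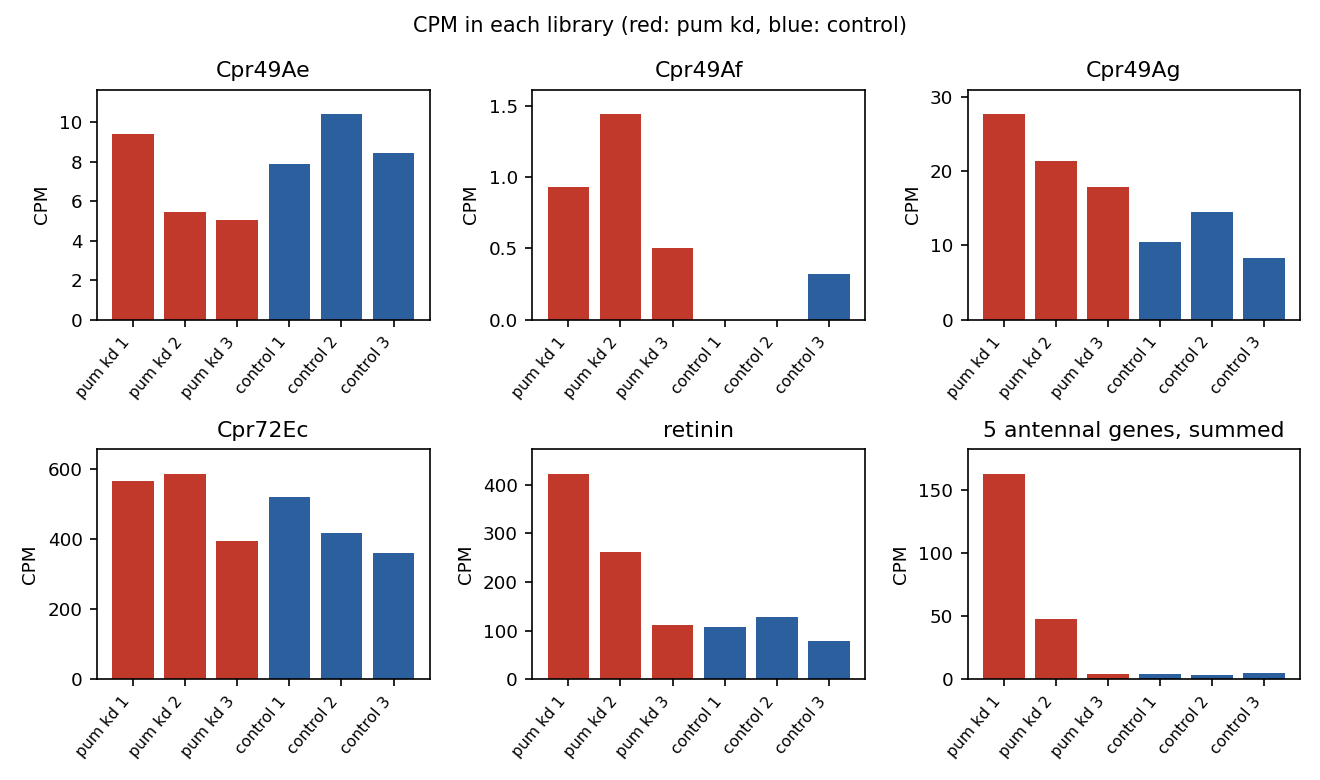
CPM in each pum kd library (red) and each control library (blue) for Cpr49Ae, Cpr49Af, Cpr49Ag, Cpr72Ec, retinin and the sum of 5 antennal genes, on separate linear axes from 0. Cpr49Ag is above the control libraries in all 3 pum kd libraries, whereas retinin and the antennal sum are high in pum kd replicates 1 and 2 and near the control level in replicate 3.

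Cpr76Bc, in the Cpr76B run at 3L:19520945-19527272, was the expressed gene with the lowest log2 fold change. It had 11.2, 11.3 and 8.31 CPM in pum kd heads, against 12.7, 17.4 and 17.6 CPM in control heads, and the groups did not overlap. The averages were 10.3 ± 1.71 CPM in pum kd and 15.9 ± 2.81 CPM in control (SD, n = 3 each). The log2 fold change of -0.63 (SE 0.23) had an adjusted p of 0.808 in edgeR.

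Of the other expressed genes, only Cpr100A, chosen after its values were seen, had groups that did not overlap. It had 7.44, 7.66 and 7.09 CPM in pum kd heads, against 9.33, 9.27 and 8.97 CPM in control heads. The spread within each group was small, 7.40 ± 0.290 CPM in pum kd and 9.19 ± 0.194 CPM in control (SD, n = 3 each), and the log2 fold change was -0.31 (SE 0.23, edgeR adjusted p = 0.993), since edgeR shares its estimate of the spread between genes.

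The middle of the range held genes without a resolved difference. Cpr11B on X had 43.4, 29.5 and 30.3 CPM in pum kd heads, against 39.2, 51.8 and 41.7 CPM in control heads, with a 95% interval of the log2 fold change from -0.81 to 0.09. Cpr73D had 26.3, 16.3 and 28.9 CPM in pum kd heads, against 33.5, 36.4 and 26.2 CPM in control heads. In both genes pum kd averages were the lower ones and the groups overlapped. The gene Ogdh overlaps 294 exon bases of Cpr73D on the other strand and had 693 to 739 CPM in pum kd and 712 to 894 CPM in control. Cpr62Bb had 8.52, 6.25 and 6.20 CPM in pum kd heads, against 11.5, 14.7 and 5.77 CPM in control heads, where replicate 3 was the lowest of all 6 libraries.

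Cpr47Ee had 44.5, 29.4 and 25.2 CPM in pum kd heads, against 23.6, 30.6 and 24.6 CPM in control heads, so a single library, pum kd replicate 1, stood above the rest. Its log2 fold change of 0.33 (SE 0.23) was -0.06 without pum kd replicates 1 and 2. Its neighbour Cpr47Ea had 6.90, 3.66 and 2.97 CPM in pum kd heads, against 1.27, 2.51 and 3.82 CPM in control heads, with a log2 fold change of 0.83 (SE 0.53) that was 0.42 without pum kd replicate 1, 0.51 without control replicate 1 and 1.25 without control replicate 3. Cpr51A had 14.4, 5.36 and 8.92 CPM in pum kd heads, against 9.06, 12.6 and 9.0 CPM in control heads. Both extremes of Cpr51A were pum kd libraries, and the sign of its log2 fold change of -0.09 turned without pum kd replicate 2 (0.22) or control replicate 2 (0.11).

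Transcripts of the corneal lens proteins differed in which libraries were high. Cpr66D, the second CPR gene of the lens, had 4.11, 1.41 and 2.75 CPM in pum kd heads, against 1.60, 2.17 and 2.29 CPM in control heads. The pum kd libraries held both its highest and its lowest value, and the log2 fold change of 0.45 (SE 0.58) was 0.08 without pum kd replicate 1 and 0.79 without pum kd replicate 2. Crys, a lens protein of the Rebers and Riddiford type without a Cpr name, had 11.1, 5.26 and 8.03 CPM in pum kd heads, against 9.03, 10.0 and 12.0 CPM in control heads. The gene retinin had 422, 262 and 112 CPM in pum kd heads, against 107, 128 and 78.5 CPM in control heads. Its log2 fold change of 1.34 (SE 0.39) had an edgeR adjusted p of 0.567, and its high libraries were pum kd replicates 1 and 2, those with the high antennal sums.

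Counting genes without a model, 7 of the 29 CPR genes tested had fully separated groups, against 10.3% of all genes tested. Of these, 4 were higher in pum kd (Cpr49Ag, Cpr67Fb, Cpr49Af and Cpr64Ac) and 3 lower (Cpr76Bc, Cpr100A and Cpr49Aa), against 5.36% and 4.95% of all genes tested. Only 3 of the 7 were expressed genes, of 20, against 10.1% of all genes averaging 1 CPM or more. The other 4 were trace genes, of 9 tested, against 11.6% of all genes tested that averaged under 1 CPM. All 4 of these, Cpr49Aa, Cpr67Fb, Cpr49Af and Cpr64Ac, passed the filter only with the reads of the group where they were high. Their separation is therefore not read as a difference. Cpr67Fb had 60, 14 and 20 reads in pum kd libraries, against 0, 5 and 5 reads in control libraries, and no fold is given for it. An antisense transcript, asRNA:CR45171, covers 389 of its 457 exon bases and had 67, 8 and 52 reads in pum kd libraries, against 76, 100 and 34 reads in control libraries. Cpr64Ac, named after its values were seen, had 76, 63 and 23 reads in pum kd libraries, against 0, 20 and 21 reads in control libraries.

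The traces came in clumps. Of the 26 trace genes, 10 had reads in a single library, with 2 to 37 reads there and 0 in the other 5 libraries. Cpr72Ea had 37 reads in pum kd replicate 3 and none elsewhere, Cpr65Ea 22 reads in the same library, and Cpr47Eg 19 and Cpr78Cb 17 reads in control replicate 3. Each library had 0 reads for 12 to 21 of the 46 detected CPR genes, and the highest number of zeros, 21, was in control replicate 1.

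**Figure D5:**
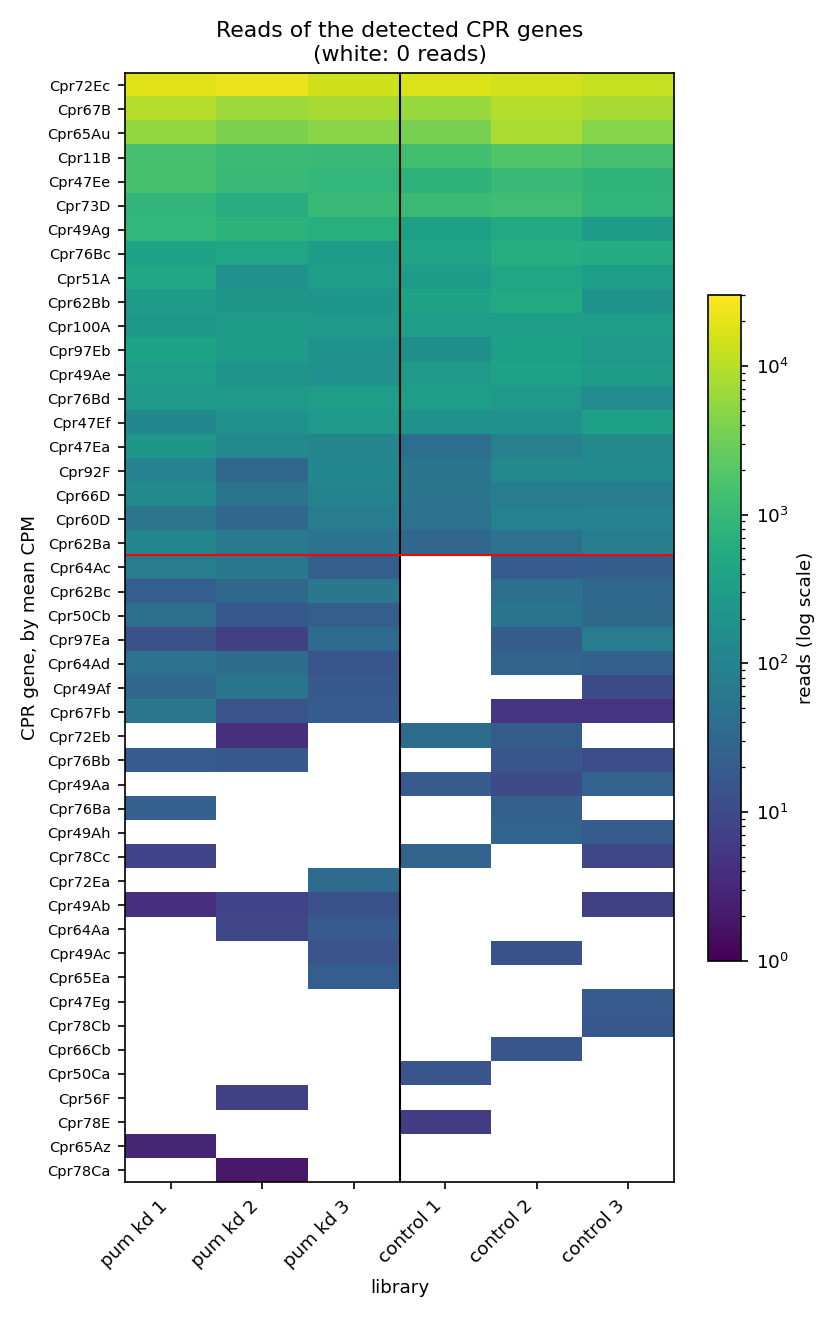
Reads (colour, log scale) of the 46 CPR genes with a read in any library, ordered by mean CPM, in 3 pum kd and 3 control libraries, with 0 reads in white and a red line below the 20 expressed genes. Above the line no cell is white, and just below it 7 genes are white in control replicate 1 and filled in all 3 pum kd libraries.

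Control replicate 1 lacked the upper trace genes. For 7 genes (Cpr49Af, Cpr50Cb, Cpr62Bc, Cpr64Ac, Cpr64Ad, Cpr67Fb and Cpr97Ea) the other libraries predicted 15 to 60 reads in control replicate 1, and all 7 had 0. Among all genes with such a prediction, 25.6% had 0 reads in control replicate 1 and 23.6% in control replicate 2, against 12.9% to 15.3% in the pum kd libraries and 13.9% in control replicate 3. Zeros at this level were thus more common in every library than counting alone gives, and differences between groups in a trace gene could not be resolved. The spread between replicates followed the level. The biological coefficient of variation had a median of 0.222 for the 8 CPR genes with 10 to 1000 CPM, against 0.198 for all genes in that range, 0.325 against 0.401 between 1 and 10 CPM, and 1.08 against 1.14 below 1 CPM.

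The library with the highest value within a group was counted for each expressed CPR gene, without a test. Of the 20, 12 had their highest pum kd value in replicate 1, 3 in replicate 2 and 5 in replicate 3, against 35.7%, 27.7% and 36.6% of all genes tested. Among control libraries, 3 were highest in replicate 1, 10 in replicate 2 and 7 in replicate 3, against 38.0%, 40.4% and 21.6%. Pum kd replicate 1 was the library with the highest antennal sum, and the part of that tissue was not tested.

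Other cuticle genes gave the same count of calls. Of the 30 other Rebers and Riddiford genes listed (the Lcp and Ccp84A genes, Acp65Aa, Pcp, Edg78E, Edg84A, Crys and resilin), 16 had no reads and 4 were expressed. Of 7 tested, 4 were higher and 3 lower in pum kd and 0 were called, with a median log2 fold change of 0.15. Of the 26 Tweedle genes, a separate family of cuticle proteins, 16 had no reads, 3 were expressed, and 0 of 4 tested were called (2 higher, 2 lower, median 0.01). TwdlG had 16.1, 17.2 and 19.2 CPM in pum kd heads, against 25.6, 23.1 and 28.7 CPM in control heads, without overlap (log2 fold change -0.56, SE 0.19, edgeR adjusted p = 0.668). TwdlE was higher without overlap, with 1.89, 2.14 and 1.31 CPM in pum kd heads, against 0.785, 0.428 and 1.00 CPM in control heads (log2 fold change 1.26, SE 0.88). So 1 of the 4 was separated in each direction, where 10.3% of all genes tested were separated in either direction.

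The enzymes around the cuticle were nearly all expressed. Of 20 genes of chitin synthesis, modification and binding, 18 were expressed, and of 19 tested 8 were higher, 11 lower and 0 called (median -0.03). Gasp, a secreted chitin-binding protein, had 47.2, 45.3 and 39.8 CPM in pum kd heads, against 32.0, 39.3 and 30.9 CPM in control heads, with a log2 fold change of 0.37 (SE 0.17, edgeR adjusted p = 0.993). Cht2 and serp were lower in pum kd without overlap (log2 fold changes -0.56 and -0.35). Thus 1 of the 19 was separated above and 2 below, against 5.36% and 4.95% of all genes tested. Of 10 genes of cuticle tanning, which make and oxidise the catechols that harden and colour the cuticle and also serve in neurons and blood cells, 8 were tested, 3 higher, 5 lower and 0 called (median -0.09). Here PPO1, a phenoloxidase of blood cells, had 13.7, 19.2 and 20.8 CPM in pum kd heads, against 13.3, 10.8 and 11.6 CPM in control heads (edgeR adjusted p = 0.825).

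Markers of tissues that a head sample could hold gave these summed levels. Glial genes (repo, Eaat1 and moody) lay between 399.9 and 424 CPM in pum kd and 364 and 451 CPM in control, and genes of the head fat body (to, fit, Lsd-1 and FASN1) between 1539 and 2145 CPM in pum kd and 1707 and 2058 CPM in control. Most of that sum was FASN1, a fatty acid synthase. Lsd-1, a lipid droplet protein, had 297, 215 and 177 CPM in pum kd heads, against 99.9, 143 and 71.7 CPM in control heads, without overlap (log2 fold change 1.13, SE 0.27, edgeR adjusted p = 0.372), while the log2 fold changes of to, fit and FASN1 were below 0. Flight muscle genes (Act88F, fln and TpnC4) summed to 4.47 to 7.17 CPM in pum kd, against 8.35 to 9.15 CPM in control. Act88F was lower in pum kd without overlap, and the groups of TpnC4 overlapped. The values of fln were higher, with 0.720, 0.694 and 0.750 CPM in pum kd, against 0, 0 and 0.294 CPM in control. However, fln passed the filter only with its pum kd reads, so its direction is not read. Leg and jump muscle genes (Act79B and TpnC41C) summed to 56.9 to 96.1 CPM in pum kd, against 81.9 to 93.0 CPM in control. The groups of Act79B overlapped. TpnC41C was lower without overlap, with 31.2, 27.1 and 23.8 CPM in pum kd, against 35.7, 41.5 and 34.5 CPM in control. Its log2 fold change was -0.44 (SE 0.18, edgeR adjusted p = 0.869). Midgut genes (Amy-p, Mal-A1, Jon65Aiii, Jon99Ci and alphaTry) summed to 47.3 to 72.8 CPM in pum kd and 39.2 to 57.8 CPM in control. Most of that sum was Amy-p, with a mean of 45.3 CPM over the 6 libraries, followed by Mal-A1 with 8.16 CPM. The proteases were near 0, with 0.191 CPM for Jon65Aiii, 0.0392 CPM for Jon99Ci and no reads for alphaTry. Testis genes summed to at most 4.56 CPM and accessory gland genes to at most 1.30 CPM. The thoracic selector Antp had 1.17, 1.25 and 1.11 CPM in pum kd heads, against 2.87, 3.14 and 2.50 CPM in control heads, without overlap. Its log2 fold change was -1.26 (SE 0.59, edgeR adjusted p = 0.993). Ubx, of the same list, had 0.780, 1.28 and 1.92 CPM in pum kd heads, against 2.02, 0 and 1.21 CPM in control heads. The Ubx groups overlapped, with a log2 fold change of 0.30 (SE 1.33), and abd-A and Abd-B had no reads. None of these marker genes was called.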

How the data were processed

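RNA from 6 libraries of male heads was sequenced on poly-A stranded libraries, and the labels describe the libraries as biological replicates of 10 pooled heads. The authors trimmed the reads (Trimmomatic 0.39), checked them (FastQC 0.12.1), aligned them to dm6 with STAR 2.7.11b and deposited raw counts per gene. The annotation and the strand setting of the counting are not given in the sources used here. The authors also deposited a normalized signal (gene counts after ComBat-seq, scaled by DESeq2), used only for an alternative, and their own comparison as log2 fold changes, p-values and a test score (Wald), none of it used. Among the per-library columns, 0 went unused. The 4 rows that name no gene held 11.5% to 14.2% of counts and were left out.

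Symbols came from the table of the authors for 28 CPR genes and from a FlyBase symbol table for 42. Positions and exon lengths came from the Ensembl 115 annotation of dm6, which matched 17710 of 17807 genes. The test was glmQLFTest of edgeR 4.0.16 under R 4.3.3, after filterByExpr and TMM scaling, with Benjamini-Hochberg adjustment over all genes. SEs and 95% intervals were derived from the same fit. CPR genes and lists were chosen with earlier results of these data known. Named were the 10 CPR genes with the highest mean CPM, the 10 with the lowest p, any called in an alternative, Cpr66D and Cpr72Ec. Genes named from the other lists, and trace genes outside this rule, were picked after their values were seen. Replicates differed by far more than sampling noise (chi-square per degree of freedom at least 44.0). The code was tested on simulated counts. Alternatives used DESeq2 1.42.0, limma 3.58.1, with a pseudocount of 1, and ComBat-seq in sva 3.50.0. ComBat-seq gave back 100% of the whole values of the authors (within 0.01 counts) when the first batch held pum kd replicate 1 beside control replicates 1 and 2.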

Additional observations from a re-analysis of the deposited data

How the results depend on the processing

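The count of 0 called CPR genes was the same in 15 of 17 alternatives, each single library left out included (0 to 0 calls). It was 1 with limma on the normalized values of the authors (Cpr49Aa) and 2 with ComBat-seq followed by DESeq2, an alternative added after the data were seen (Cpr49Ag and Cpr49Aa). The count of 7 genes with separated groups was 3 of 20 when genes averaging under 1 CPM were left out, against 10.1% of all genes tested. It was 8 to 12 with single libraries left out. These were 24.2% to 37.5% of the CPR genes tested, against 16.2% to 31.6% of all genes tested. It was 11 of 32 without pum kd replicate 3, against 21.9% of all genes, and 12 of 32 without control replicate 3, against 16.4%. Without control replicate 2 it was 8 of 29 (27.6%), below the 31.6% of all genes. It was 17 of 42 with pum kd replicates 1 and 2 left out together, also added afterwards. The last share, 40.5%, stands beside 39.2% of all genes tested in that setting.

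The median log2 fold change ran from -0.24 to 0.21 with single libraries left out. The log2 fold change of Cpr67B turned to 0.0152 with DESeq2, 0.0153 with RLE factors, 0.0461 with every gene tested, 0.0646 with the division of libraries as a term, 0.0133 with limma, 0.0363 with ComBat-seq and edgeR and 0.0149 with ComBat-seq and DESeq2 (-0.15 to 0.18 with single libraries left out, above 0 without pum kd replicate 2 or 3 or control replicate 2 or 3). That of Cpr51A turned to 0.0446 with the division, 0.10 with limma, 0.12 with ComBat-seq and edgeR and 0.10 with ComBat-seq and DESeq2 (-0.47 to 0.22). That of Cpr65Au ran from -0.44 to 0.16, and those of Cpr72Ec and Cpr47Ee turned to -0.124 and -0.057 without pum kd replicates 1 and 2. The causes were not tested. The count of 20 expressed genes was 20 to 22 with single libraries left out, 27 at a mean of 0.5 CPM and 15 at 5 CPM, and the summed CPM ran from 983 to 1149 in pum kd and from 960 to 1081 in control.

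Replicate numbers did not pair the libraries (correlations of deviations of -0.37, -0.06 and 0.10 between same-numbered libraries). With the replicate block, 0 CPR genes and 14 genes in all were called, and Cpr49Ag had a log2 fold change of 1.02 (edgeR adjusted p = 0.388). A count fit on reads derived back from the normalized values of the authors, and a scan of protein sequences for the Rebers and Riddiford consensus, were planned and not run. Depth limits the genes under 1 CPM.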
